A study of Mus musculus with 2 samples.

Results

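The nuclei described here are thick ascending limb (TAL) nuclei of the mouse kidney medulla that carried transcripts of Tmem52b, listed as a TAL-β marker, and of Tmem207 or Gpc5, listed as TAL-γ markers, in the same droplet. They are called double-marker nuclei below, a name that stands for the rule and not for a cell type. They were chosen by their own counts. A barcode had to hold at least 10 counts of Slc12a1, which encodes the salt cotransporter NKCC2, at least 1 count of the TAL-β marker Tmem52b and at least 1 count of the TAL-γ markers Tmem207 and Gpc5 together. It could hold at most 4 counts of the cortex-type genes Enox1 and Thsd4, at most 1 of the macula densa genes Nos1 and Pappa2, at most 2 of the proximal tubule genes Lrp2 and Cubn, and at most 5000 counts in all. The rule found 437 of the 8121 medulla barcodes called as nuclei, or 5.38% (95% Clopper-Pearson interval 4.9% to 5.89%), in a series of 13563 nuclei. All intervals given here cover counting error only, because there was 1 library per region, and no difference was tested across animals.

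The study asked which cell types make up the TAL of the kidney. Male mice of strain B6, with the genotype labelled WT and an age label of 12 without a unit, carried Slc12a1-CreERT2 and an INTACT reporter, a green fluorescent tag of the nuclear envelope that tamoxifen switches on. Kidneys were divided into a superficial strip of cortex and the remaining tissue, here called medulla, which therefore also held deep cortex. Tagged nuclei were sorted, which enriches for cells in which the NKCC2 promoter drove Cre, and sequenced with a droplet method. Other cells were present, since the deposited clusters 10 and 11 held Lrp2, a proximal tubule gene, at 1649 and 2296 CPM. The medulla library held 20947211 counts with a median of 2430 per nucleus, and the cortex library held 16457300 counts in 5442 nuclei with a median of 2427. No barcode was shared between members of the set and the cortex library.

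The TAL reabsorbs salt through NKCC2, and its cells differ in how they handle potassium and divalent cations. TAL-α cells carry claudin 10 and lack the basolateral potassium channel Kir4.1 (Kcnj10), TAL-β cells carry claudin 16 and Kir4.1, and TAL-γ cells of the medulla carry claudin 10 and Kir4.1. Claudin 10 forms a paracellular path for sodium, whereas claudins 16 and 19 form one for calcium and magnesium.

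The double-marker nuclei were compared with medulla nuclei that carried either Tmem52b or the TAL-γ markers of the rule, and not both. Other markers of these types were not used in the choice. The 77 TAL-γ comparators in deposited cluster 6, described below, held the TAL-β marker Wnk1 at 2320 CPM as a set. The TAL-β comparators had at least 2 counts of Tmem52b and none of Tmem207 or Gpc5. There were 141 such barcodes, of which 128 also passed the other gates when the Enox1 and Thsd4 limit was not applied and 18 passed with it, and the 128 were used. The TAL-γ comparators had no Tmem52b and at least 2 counts of Tmem207 and Gpc5 together, with 3284 barcodes of which 3097 passed all gates. They were not chosen by Kcnj10, and part of them lay in deposited clusters with little of it, as given below. Levels are CPM, pooled gene counts of all nuclei in a set scaled to a set total of 1000000, and a ratio is the quotient of 2 such levels. The TAL-β comparators thus differed from the double-marker nuclei in the cortex-type genes as well as in the TAL-γ markers.

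Among the genes of the rule, Slc12a1 was above its limit in every nucleus and Tmem52b was close to its own. Slc12a1 ranged from 17 to 114 counts per double-marker nucleus with a median of 49, against medians of 36 and 48 in the TAL-β and TAL-γ comparators. Tmem52b ranged from 1 to 11 counts with a median of 1, and 238 nuclei held 1 count, 100 held 2 and 99 held 3 or more. The TAL-β comparators held a median of 4 counts of Tmem52b, from 2 to 15. Most double-marker nuclei therefore met the TAL-β side of the rule on a single count. Tmem207 ranged from 0 to 15 counts with a median of 3 and was found in 93.4% of the nuclei, while Gpc5, from 0 to 26 counts, was found in 47.8%. Both TAL-γ genes were present in 180 nuclei, and 29 met the rule on Gpc5 without Tmem207. In the TAL-γ comparators the order was the other way, with Gpc5 in 87.3% and Tmem207 in 61.4% of nuclei. A stricter pair of limits, at least 2 counts on each side, was met by 182 of the 437 nuclei. Nos1 and Pappa2 were at 0 in all 437.

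The levels of Tmem207 and Gpc5 in the clusters deposited by the authors are given as a description, since the rule used both genes and the double-marker nuclei add to the levels of their clusters. In deposited cluster 6, which held 118 of the 128 TAL-β comparators described below, Tmem207 stood at 934 CPM and Gpc5 at 189 CPM. In clusters 2 and 5, where most TAL-γ comparators lay, Tmem207 stood at 777 and 2264 CPM and Gpc5 at 1813 and 1537 CPM. The 211 double-marker nuclei of cluster 6 held Tmem207 in 96.2% and Gpc5 in 20.4% of nuclei, shares that the rule set in part. Of genes outside the rule, Cldn10 stood at 12.8 CPM in these 211.

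**Figure D1:**
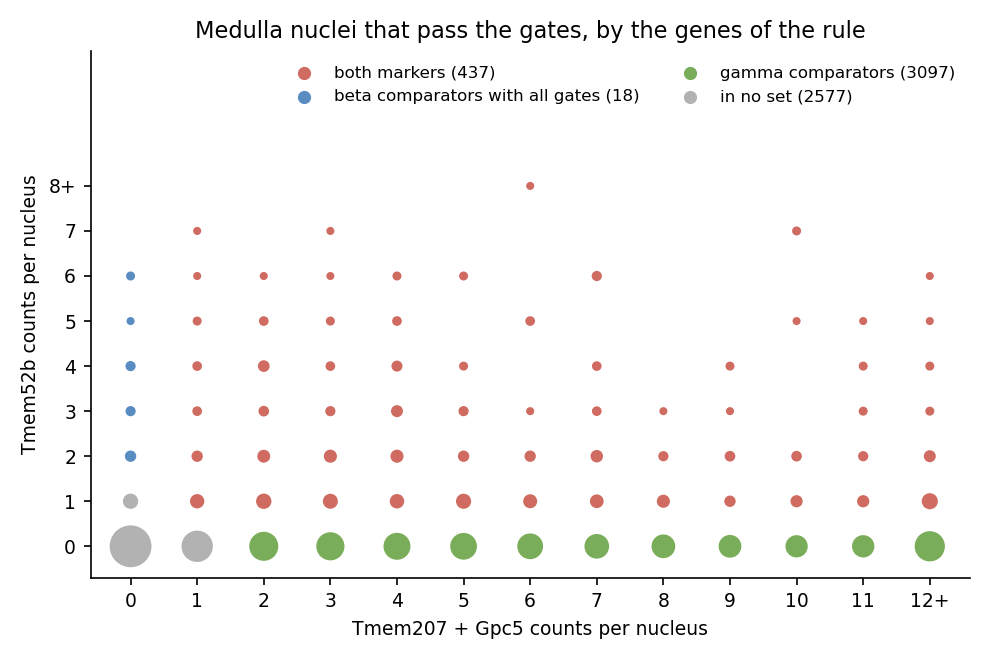
Medulla nuclei that pass the gates, placed by their counts of Tmem207 plus Gpc5 (horizontal axis) and of Tmem52b (vertical axis), with the area of a dot growing with the square root of the number of nuclei. The 437 double-marker nuclei crowd along the row of 1 Tmem52b count, which holds 238 of them, and spread widely along the Tmem207 and Gpc5 axis.

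The promoters of the gene that stands for each side of the rule are shown to identify the loci. Tmem52b lies on chromosome 6 and Tmem207 on chromosome 16 of GRCm39, where its gene body (chr16:26322406-26345519, minus strand) neighbours Cldn16 (chr16:26281885-26301515, plus strand). The 200 bases before the start of the canonical transcript of each gene in GENCODE M39, which for Tmem207 lies inside the outermost end of the gene body, (chr6:129489302-129489501, plus strand, and chr16:26345513-26345712, minus strand) are given 5′ to 3′, with capitals for a match to AAGGTCA, the estrogen-related receptor motif, on either strand. Other motifs searched on both strands included TGANTCA (AP-1) and the MEF2 consensus.
Tmem52b: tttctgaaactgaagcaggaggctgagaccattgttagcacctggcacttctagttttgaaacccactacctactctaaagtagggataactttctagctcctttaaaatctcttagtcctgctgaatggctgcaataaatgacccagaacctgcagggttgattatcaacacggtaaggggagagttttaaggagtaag
Tmem207: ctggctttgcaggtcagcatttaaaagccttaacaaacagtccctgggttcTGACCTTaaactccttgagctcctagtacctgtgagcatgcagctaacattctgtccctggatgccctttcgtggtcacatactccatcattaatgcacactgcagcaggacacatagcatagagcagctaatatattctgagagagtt
The single match lay 149 to 143 bases before that transcript start of Tmem207, on the opposite strand. AAGGTCA occurred in 3.03% of 21770 protein-coding promoters of the same length, TGANTCA in 4.93% and the MEF2 consensus in 0.11%. A match is a description of the sequence, and no measurement here bears on binding.

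Nuclei just inside and just outside a limit are given as a description. The 41 nuclei with an Enox1 and Thsd4 sum of 4 held Rbfox1 at 2474 CPM, Cldn16 at 284 CPM and Kcnj10 at 204 CPM. The 28 nuclei left out at a sum of 5 held the same genes at 1253, 256 and 153 CPM. In all, 257 nuclei exceeded the limit of 4, these 28 included, and 13 exceeded 5000 counts. No double-marker nucleus held between 10 and 12 counts of Slc12a1. The 238 nuclei with 1 count of Tmem52b held Kcnj10 at 183 CPM and Rbfox1 at 1669 CPM, and the 3699 nuclei that failed only by having none held 97.2 and 736 CPM.

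Depth was similar in the 3 sets. The double-marker nuclei summed to 1121056 counts, with a median of 2585 per nucleus (quartiles 2173 and 2884) and 1476 genes, against medians of 2519.5 and 2367 counts in the TAL-β and TAL-γ comparators. Over 4000 counts were held by 2.06% of the double-marker nuclei, 3.13% of the TAL-β and 1.68% of the TAL-γ comparators. Of the double-marker nuclei, 28 (6.41%) were among the 5% of medulla barcodes with the highest Scrublet doublet scores, as were 2.34% of the TAL-β and 5.65% of the TAL-γ comparators, with tied scores counted in. Droplets with more than 1 nucleus were not removed, and their part in the results was not tested.

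Free RNA was measured in 434397 medulla barcodes with under 100 counts, which held Tmem52b at 154 CPM, Tmem207 at 544 CPM and Gpc5 at 642 CPM. Among 77 proximal tubule barcodes of the medulla library, with a median of 4885 counts, Tmem52b was found in 3.9% (interval 0.811% to 11%), and none held it together with Tmem207 or Gpc5, which allows a share of up to 3.9% by 3 counts and 4.68% by the Clopper-Pearson limit. Among medulla nuclei that passed the gates, the share with Tmem52b was 2.31% (46 of 1993) where Tmem207 and Gpc5 were absent and 5.94% (38 of 640) at 1 count of them. It was 12.7% (166 of 1310) at 2 to 4 counts and 10.7% (233 of 2186) at 5 or more. These shares use the genes of the rule in nuclei held to the Enox1 and Thsd4 limit, which removed most nuclei with Tmem52b alone, and nothing is read from their order.

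Markers of other cell types are given as sums over fixed lists. The proximal tubule list summed to 95.5 CPM in the double-marker nuclei, 141 CPM in the TAL-β and 112 CPM in the TAL-γ comparators, with Slc27a2 its most abundant gene and Slc22a8 and Slc5a2 at 0. The endothelial list summed to 25.9, 49 and 56.1 CPM, led by Flt1 with Cdh5 at 0, and the stromal list to 8.03, 12.2 and 7.96 CPM. The intercalated cell list was at 35.7, 27.6 and 7.28 CPM, led by Slc4a9 at 16 counts, with Aqp6, Foxi1 and Slc4a1 at 0. The immune list summed to 23.2, 12.2 and 26.6 CPM and was led by Csf1r. The distal convoluted tubule list summed to 1417, 2293 and 1349 CPM, most of it Tmem72, with Pvalb and Trpv5 at 0 in the double-marker nuclei. The podocyte and parietal list summed to 263, 178 and 377 CPM, all of it in the double-marker nuclei from Pax8, with Nphs1 and Wt1 at 0. The urothelial list summed to 18.7, 9.18 and 12.3 CPM, led by Trp63 at 14 counts, and 5 of its 7 genes, Upk2, Upk3a and Krt5 included, were at 0. Both of its 2 measured genes were at least 1.5-fold above both comparators, where 2.26% of all genes were above and 5.94% below both. The whole list had 21 counts in the double-marker nuclei and 3 in the TAL-β comparators, so these 2 calls rested on few counts. The part of these cells in the results was not tested. The macula densa list summed to 61.6, 239 and 36.7 CPM, led in the double-marker nuclei by Sema6a at 26 counts, with Bmp3 at 0, and with Nos1 and Pappa2, which the rule limited to a sum of 1, at 0. Of its genes, 0 of 3 were at least 2-fold higher and 2 lower than in the TAL-β comparators, and 2 of 5 were higher and 1 lower than in the TAL-γ comparators, where the shares of all genes were 5.2%, 3.9%, 2.48% and 4.02%. Of 6 measured against both, 2 were above and 1 below both. The thiazide-sensitive cotransporter Slc12a3 had 6 counts in the double-marker nuclei and 120 in the TAL-β comparators, all in 2 of the 128 nuclei, so its ratio describes those 2.

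The genes proposed as markers of the double-marker nuclei behaved in 3 ways. Kcnj10, Mef2c and Slc34a2 were near the level of the TAL-β comparators and above that of the TAL-γ comparators, Rbfox1 was above both, and Jag1 and Dusp6 had intervals against the TAL-β comparators that included equal levels. Tmem207, a gene of the rule, stood at 1581 CPM in the double-marker and 1252 CPM in the TAL-γ nuclei and was 0 in the TAL-β comparators by construction.

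Kcnj10 stood at 183 CPM (205 counts) in the double-marker nuclei, 208 in the TAL-β and 108 in the TAL-γ comparators. The ratio was 0.878 (interval 0.665 to 1.17) against the TAL-β and 1.69 (1.44 to 1.97) against the TAL-γ comparators. Of the TAL-γ comparators, 235 and 358 lay in deposited clusters 3 and 4, where Kcnj10 over all nuclei stood at 3.11 and 0.865 CPM. Cldn10 stood at 262.7 and 234.5 CPM there. Claudin 10 with little Kir4.1 is the pattern given above for TAL-α. The ratio to the whole TAL-γ set therefore also compares with such nuclei. Inside deposited clusters 7, 2 and 5 the Kcnj10 ratios to TAL-γ comparators were 1.01 (0.745 to 1.35), 1.05 (0.548 to 1.84) and 1.09 (0.64 to 1.75). Kir4.1 transcripts were found in 33.4% of double-marker nuclei, 35.2% of TAL-β and 19% of TAL-γ comparators, and in 0 of 77 proximal tubule barcodes. Mef2c, a transcription factor, stood at 98.1 CPM (110 counts), 85.7 CPM and 13.1 CPM. Its ratios were 1.15 (0.75 to 1.8) and 7.5 (5.66 to 9.96). Slc34a2, a sodium phosphate cotransporter, followed the same order at 30.3, 33.7 and 5.26 CPM, with ratios of 0.901 (0.446 to 1.97) and 5.77 (3.53 to 9.37). Pooled over the set, these genes did not separate the double-marker nuclei from the TAL-β comparators at this depth. Inside deposited cluster 6, Mef2c was 2.12-fold (1.38 to 3.37) higher than in the TAL-β comparators there. Against the 18 TAL-β nuclei that met the Enox1 and Thsd4 limit, which held 6 counts of Kcnj10, the Kcnj10 ratio was 1.38 (0.622 to 3.8).

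Rbfox1, which encodes a splicing regulator, stood at 1838 CPM (2061 counts) in the double-marker nuclei, 425.5 in the TAL-β and 820.3 in the TAL-γ comparators. It was 4.32-fold higher (3.64 to 5.17) than in the TAL-β and 2.24-fold higher (2.13 to 2.36) than in the TAL-γ comparators. It was found in 62.9%, 22.7% and 34.1% of nuclei, and after thinning every nucleus to 1000 counts in 51.5%, 19.5% and 27.5%. Free RNA held it at 524 CPM, and 18.2% of proximal tubule barcodes held a count. Against the 18 TAL-β nuclei that also met the Enox1 and Thsd4 limit, where it stood at 1306 CPM, the ratio was 1.41 (1.09 to 1.86). The size of the difference from TAL-β nuclei therefore moved with that limit. Jag1, a Notch ligand, stood at 93.7, 61.2 and 51.4 CPM, with ratios of 1.53 (0.942 to 2.61) and 1.82 (1.45 to 2.27). Dusp6, a phosphatase that acts on ERK, had 21 counts, with ratios of 1.02 (0.398 to 3.09) and 1.61 (0.952 to 2.63).

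**Figure D2:**
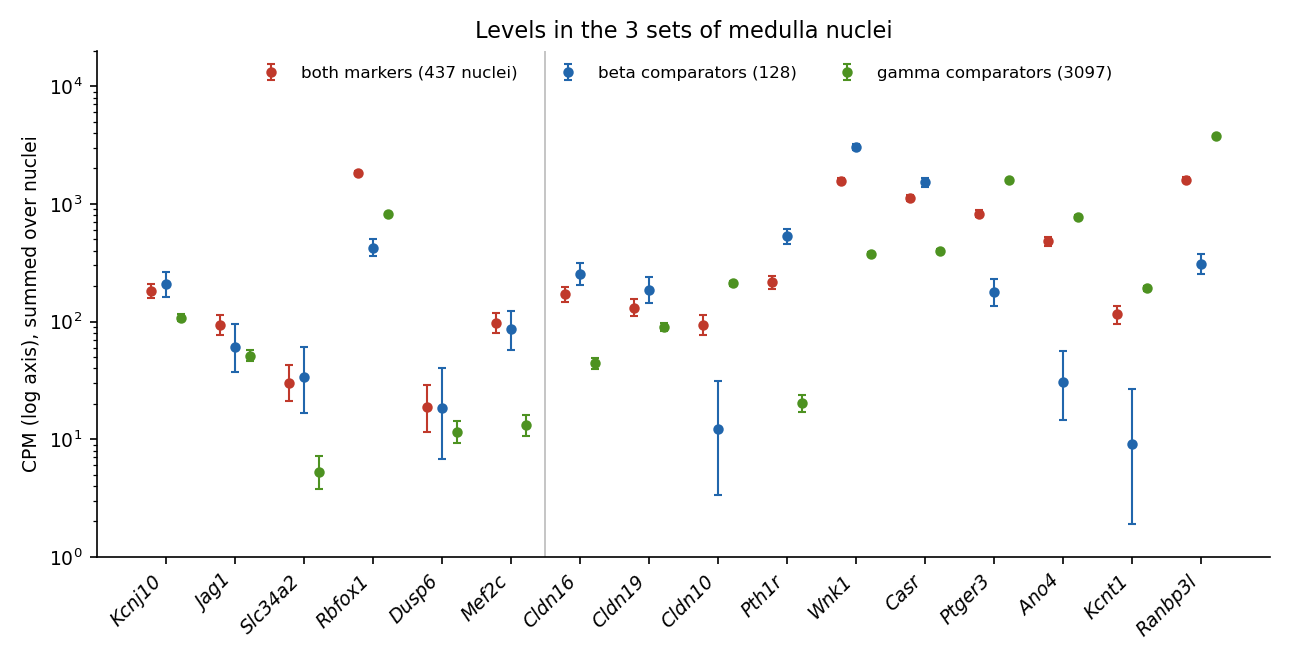
Levels in CPM (log axis) of the proposed markers, left of the grey line, and of other TAL genes, summed over the nuclei of each set, with exact 95% Poisson intervals as bars. Rbfox1 is highest in the double-marker nuclei at 1838 CPM, Kcnj10 and Mef2c lie at the level of the TAL-β comparators, and Pth1r, Wnk1, Ptger3, Ano4 and Ranbp3l lie between the comparators.

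Across all genes, 6559 had at least 30 counts in the double-marker nuclei and TAL-β comparators together. Of these, 341 were at least 2-fold higher in the double-marker nuclei (5.2%) and 256 at least 2-fold lower (3.9%). With only the 18 TAL-β nuclei within the Enox1 and Thsd4 limit as comparators, 594 genes were higher and 698 lower, and these held 54 of the 341 (15.8%) and 61 of the 256 (23.8%). The 18 nuclei hold few counts, and which single genes passed depended on the choice of TAL-β comparators. Against the TAL-γ comparators, 282 of 11378 genes were higher (2.48%) and 457 lower (4.02%). With at least 2 counts required on each side of the rule, 497 were higher and 872 lower, and these held 214 of the 282 and 242 of the 457. Against the TAL-β comparators those limits gave 164 higher and 180 lower genes. The sets were defined on the same nuclei, so the shares describe the sets and are not a test. The median log2 ratio of all genes was 0.03 against the TAL-β and -0.03 against the TAL-γ comparators.

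TAL-β markers were present at intermediate levels. Of 14 genes of the TAL-β list outside the rule, 0 were at least 2-fold higher than in the TAL-β comparators and 6 were at least 2-fold lower, with a median log2 ratio of -0.95. All 14 were at least 2-fold higher than in the TAL-γ comparators, with a median of 1.86. Of all genes, 5.2% were higher and 3.9% lower than in the TAL-β and 2.48% higher than in the TAL-γ comparators. The whole list, Tmem52b included, summed to 6270 CPM, between 16677 and 1622 CPM. Pth1r, the parathyroid hormone receptor, stood at 215 CPM, between 529.6 and 20.2 CPM, with ratios of 0.406 (0.333 to 0.496) and 10.6 (8.63 to 13.1). Wnk1, a kinase that regulates cation chloride cotransport, stood at 1571 CPM, between 3040 and 374 CPM. Itpkb, an inositol phosphate kinase, was at 293, 242 and 85.9 CPM and its ratio to the TAL-β comparators was 1.21 (0.944 to 1.57). Nrxn3, a neurexin, was the exception in size at 95.5 CPM against 3949 and 37.8 CPM. The Enox1 and Thsd4 limit applied to the double-marker nuclei and not to these TAL-β comparators.

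Cortex-type genes were on the lower side of the TAL-β comparison. All 11 genes of a cortex list outside the rule, of 256 lower genes in all, were at least 2-fold lower than in the TAL-β comparators and 9 of 11 were at least 2-fold higher than in the TAL-γ comparators. The shares of all genes in these directions were 3.9% and 2.48%. Pde10a, a phosphodiesterase, stood at 24.1 CPM against 1433 CPM in the TAL-β comparators, and Sfrp1, a secreted Wnt modulator, at 52.6 against 805.1 CPM. In the 18 TAL-β nuclei that met the limit, Pde10a stood at 66.4, Sfrp1 at 88.5 and Nrxn3 at 310 CPM. The levels of these genes in TAL-β nuclei thus differed widely with the limit on Enox1 and Thsd4. The TAL-β list summed to 8233 CPM in the 18 nuclei and the TAL-γ list to 3364 CPM. Against them the ratio was 0.845 (0.679 to 1.07) for Wnk1, 1.18 (0.87 to 1.64) for Casr, 2.2 (1.56 to 3.21) for Ranbp3l, 2.33 (1.43 to 4.09) for Ptger3 and 1.05 (0.915 to 1.21) for Umod, so these genes were nearer to equal levels than against the 128.

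TAL-γ markers were present at intermediate levels as well. Of 13 TAL-γ list genes outside the rule, 12 were at least 2-fold higher than in the TAL-β comparators, all but Veph1 (1.18, 0.862 to 1.65), with a median log2 ratio of 2.22, where 5.2% of all genes were higher. Against the TAL-γ comparators, 0 were at least 2-fold higher and 4 at least 2-fold lower, with a median of -0.74, where 2.48% and 4.02% of all genes were. The whole list, rule genes included, summed to 8888 CPM, between 1580 and 15630 CPM. Ano4, an anoctamin, stood at 480 CPM, 15.7-fold above the TAL-β comparators (30.6 CPM) and at 0.617 (0.563 to 0.674) of the TAL-γ comparators (778 CPM). Kcnt1, a sodium-activated potassium channel, stood at 115 CPM, between 9.18 and 192 CPM. Ranbp3l stood at 1608 CPM, between 309 and 3767 CPM, and Prox1, a transcription factor, at 171 CPM, between 36.7 and 239 CPM. The TAL-α list summed to 2725 CPM, between 1439 and 4294 CPM. Of its 12 genes, 7 were at least 2-fold higher than in the TAL-β and 2 at least 2-fold lower than in the TAL-γ comparators, led by Ptger3, the EP3 prostaglandin receptor, at 825, 178 and 1593 CPM. The shares of all genes in these directions were 5.2% and 4.02%.

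**Figure D3:**
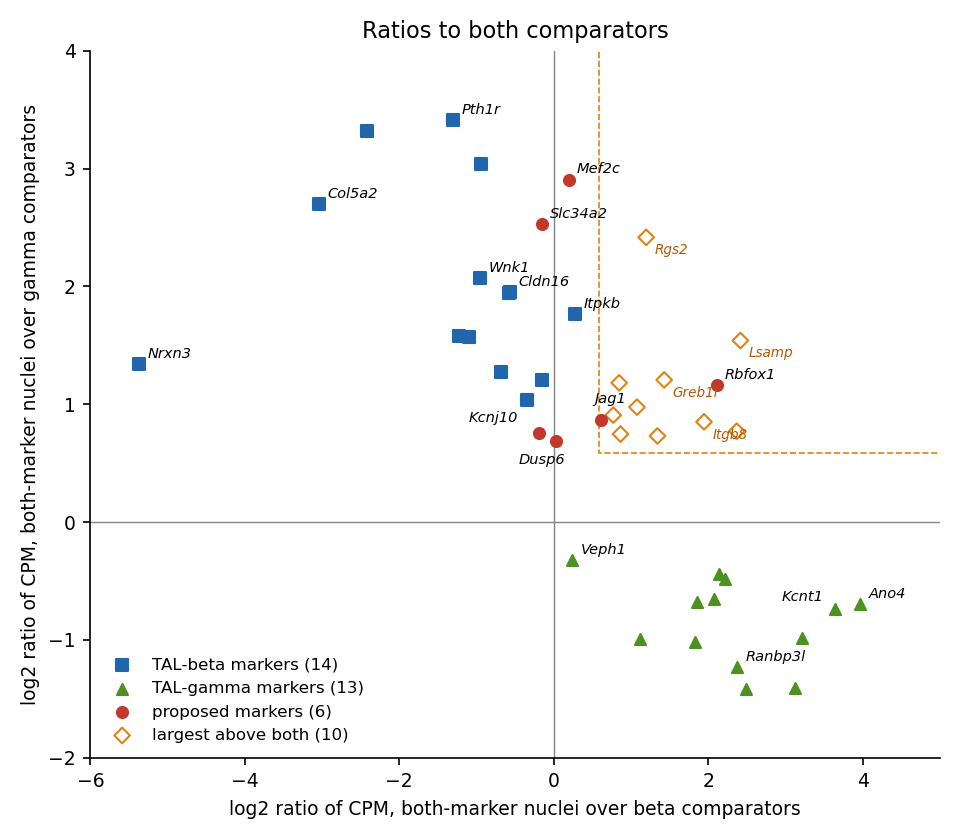
Log2 ratio of CPM in the double-marker nuclei over the TAL-β comparators (horizontal axis) and over the TAL-γ comparators (vertical axis), with 1 symbol per gene that had a count in all 3 sets. TAL-β list genes lie high, all 14 above 1 on the vertical axis, TAL-γ list genes lie to the lower right, and the dashed lines mark 1.5-fold above both comparators.

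The genes of divalent cation handling varied from gene to gene. Of the calcium and magnesium list, 0 of 9 genes were at least 2-fold higher and 5 were lower than in the TAL-β comparators, and 4 of 11 were at least 2-fold higher and 1 was lower than in the TAL-γ comparators. Of all genes, 5.2% were higher and 3.9% lower than in the TAL-β and 2.48% higher and 4.02% lower than in the TAL-γ comparators. Of 13 genes measured against both, 2 were at least 1.5-fold below both comparators, where 5.94% of all genes were. Casr, the calcium-sensing receptor, stood at 1122 CPM, with 1521 CPM in the TAL-β and 395 CPM in the TAL-γ comparators, ratios of 0.738 (0.664 to 0.82) and 2.84 (2.66 to 3.03). Vdr, the vitamin D receptor, stood at 128, 269 and 39.8 CPM, and Kl, which encodes klotho, at 163, 355 and 68.4 CPM. Each of these lay between the comparators. Cldn16 stood at 171 CPM, with ratios of 0.674 (0.519 to 0.883) and 3.87 (3.22 to 4.64), and Cldn19 at 131 CPM, with ratios of 0.702 (0.518 to 0.963) and 1.47 (1.22 to 1.76). Cldn10 stood at 93.7 CPM (105 counts), 7.65-fold (2.9 to 28.6) above the 4 counts of the TAL-β comparators and at 0.442 (0.359 to 0.539) of the TAL-γ comparators.

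Among salt transport genes, 1 of 21 was at least 2-fold higher and 4 were lower than in the TAL-β comparators, and 3 of 22 were higher and 0 lower than in the TAL-γ comparators. Over all genes these shares were 5.2%, 3.9%, 2.48% and 4.02%, and 1 of 21 is near the share of all genes. Fxyd2, which encodes a sodium pump regulator, stood at 1622, 3379 and 1277 CPM. Sodium pump subunit Atp1b1 differed little, with ratios of 1.02 (0.934 to 1.11) and 0.853 (0.816 to 0.891). The apical potassium channel Kcnj1 (ROMK) had ratios of 1.2 (1.01 to 1.43) and 0.909 (0.838 to 0.985), and Kcnj16 (Kir5.1), the partner of Kir4.1, 1.03 (0.92 to 1.15) and 1.43 (1.35 to 1.51). Of 9 potassium channel genes, 2 were at least 2-fold higher and 1 lower than in the TAL-β comparators, where 5.2% and 3.9% of all genes were. Of 12, 0 reached 2-fold against the TAL-γ comparators in either direction, where 2.48% and 4.02% of all genes did. Umod, which encodes uromodulin, stood at 4859, 3398 and 3341 CPM, 1.43-fold (1.34 to 1.53) and 1.45-fold (1.41 to 1.5) above the comparators.

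Growth factor, Notch and transcription factor genes were read from fixed lists. Egf, whose precursor TAL cells make in quantity, stood at 10939 CPM, between 16781 and 4289 CPM, while its receptor Egfr stood at 225 CPM, 2.53-fold (1.72 to 3.86) above the TAL-β and 1.26-fold (1.1 to 1.45) above the TAL-γ comparators. In the list of receptor tyrosine kinase and ERK feedback genes, 1 of 18 was at least 2-fold higher and 1 lower than in the TAL-β comparators, and 4 of 25 were higher and 0 lower than in the TAL-γ comparators, where the shares of all genes were 5.2%, 3.9%, 2.48% and 4.02%. In the Notch list, 0 of 11 genes were higher and 1 was lower against the TAL-β comparators, and 0 of 14 were higher and 1 was lower against the TAL-γ comparators. The Notch receptor Notch2 had ratios of 1.07 (0.7 to 1.69) and 1.03 (0.825 to 1.26), and the target Hes1 0.899 (0.645 to 1.27) and 1.03 (0.859 to 1.22). Of the tubule transcription factor list, 1 of 13 genes was at least 2-fold higher and 0 were lower than in the TAL-β comparators, and 0 of 16 were higher and 4 lower than in the TAL-γ comparators, with 1 at least 1.5-fold above and 3 below both. The shares of all genes were 4.02% lower than in the TAL-γ comparators, 2.26% above both and 5.94% below both. Pax2, a kidney developmental regulator, stood at 846, 435 and 1478 CPM, and Esrrb, an estrogen-related receptor, at 980, 505 and 990 CPM. Of the related RBFOX and MEF2 genes, Rbfox2 had a ratio of 0.601 (0.491 to 0.739) to the TAL-β and 1.01 (0.892 to 1.14) to the TAL-γ comparators, and Mef2a 1.34 (1.03 to 1.77) and 1.16 (1.03 to 1.31).

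A smaller group of genes was higher in the double-marker nuclei than in either comparator. At 1.5-fold above both, 260 of 11512 genes qualified (2.26%), and 684 (5.94%) were at or below the inverse of 1.5 times both. The gene minimum here was met by all sets together, mostly by TAL-γ counts. A TAL-β count of 0 was set at the floor of 3 counts. A rare gene could therefore be called below the TAL-β comparators by the floor alone. Such calls were not counted, so the 5.94% is no clean background share wherever it is given. Beside Rbfox1, those most above both included the integrin gene Itgb8, at 201, 52 and 111 CPM, with ratios of 3.86 (2.36 to 6.74) and 1.8 (1.55 to 2.09). Rgs2, which encodes a regulator of G protein signalling, stood at 56.2, 24.5 and 10.5 CPM, with ratios of 2.29 (1.1 to 5.55) and 5.34 (3.77 to 7.54). Greb1l stood at 66, 24.5 and 28.6 CPM, with ratios of 2.7 (1.3 to 6.48) and 2.31 (1.75 to 3.02). Lsamp, which encodes a cell adhesion protein, had 55 counts in the double-marker nuclei against 3 and 125, so its ratio to the TAL-β comparators, 5.34 (1.74 to 26.7), rested on 3 counts. The noncoding gene 1700123O21Rik (chr16:5768398-5841543) had 54 counts against 0 in the TAL-β comparators, at least 5.24-fold higher with a floor of 3 counts over the set, and 3.43-fold (2.43 to 4.82) above the TAL-γ comparators. It lies within Rbfox1 (chr16:5124665-7230343) on the same strand, so its reads cannot be told apart from Rbfox1 introns with certainty. Itgb6, another integrin gene, stood at 637, 422 and 281 CPM, with ratios of 1.51 (1.26 to 1.82) and 2.27 (2.08 to 2.47).

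The group above both depended on the TAL-β comparators used. With the 18 TAL-β nuclei that met the Enox1 and Thsd4 limit, 54 genes lay above both and 16 of them were among the 260. Itgb8 was 3.02-fold (1.02 to 14.8) and Itgb6 1.51-fold (0.963 to 2.53) above those 18, while Rgs2 and Lsamp had no count in them and the floor of 3 counts lay above the levels of the double-marker nuclei. Genes below both were mostly rare ones. Ccdc22, Jazf1, Xk and Cfap299 each had 1 count in the double-marker nuclei, and Ehf, an epithelial transcription factor, was among the better measured at 66, 132 and 158 CPM, with ratios of 0.502 (0.34 to 0.748) and 0.417 (0.325 to 0.528).

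Most genes that differed between the comparators lay between them in the double-marker nuclei. Of 1094 genes at least 2-fold higher in the TAL-β than in the TAL-γ comparators, 756 lay between, and on a log2 scale with 0 at the TAL-γ and 1 at the TAL-β comparators their median position was 0.255. Of 1127 genes higher in the TAL-γ comparators, 790 lay between, with a median of 0.167. Among genes with at least 300 counts, 172 of 187 and 299 of 353 lay between, at medians of 0.469 and 0.225. With comparators chosen by the subtype genes alone, 59.4% of the genes higher in the TAL-β comparators lay between, at a median of 0.153, against 69.1% before, and with at least 2 counts on each side of the rule the median was 0.366. The position against the 18 TAL-β nuclei within the limit was not computed. The summed profile of the set thus lay nearer the TAL-γ comparators on this scale for genes higher in them. On a log scale, an even sum of 2 unlike kinds of nuclei also lies nearer the higher level. The genes were chosen by the difference between the same comparators. Nothing about the single nuclei is therefore read from these positions.

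An intermediate sum can come from intermediate nuclei or from nuclei of different kinds, so the markers were counted within each nucleus. The 14 TAL-β and 13 TAL-γ list genes outside the rule were summed, with limits at the 95th percentile of the opposite comparator, 11 and 14.65 counts. The double-marker nuclei held medians of 10 TAL-β and 13 TAL-γ list counts, against 35.5 and 2 in the TAL-β and 3 and 28 in the TAL-γ comparators. Both limits were exceeded by 36 of 437 nuclei, or 8.24% (5.84% to 11.2%). The limits were raw counts, not scaled by depth. Most of the 9 double-marker nuclei with over 4000 counts exceeded both, including the deepest at 4971 counts, against a set median of 2585. The part of depth and of droplets with more than 1 nucleus in this share was not tested. The TAL-β limit alone was exceeded by 164 (37.5%), the TAL-γ limit alone by 155 (35.5%) and neither by 82 (18.8%). In the comparators, 3.13% (0.858% to 7.81%) of TAL-β and 2.68% (2.14% to 3.31%) of TAL-γ nuclei exceeded both, shares that the choice of limits holds near or under 5%. Of the 18 TAL-β nuclei within the Enox1 and Thsd4 limit, 2 (11.1%, 1.38% to 34.7%) exceeded both. The TAL-β limit of 11 counts lay below the lower quartile of the TAL-β comparators (22.8 counts), so nuclei at intermediate levels could also exceed 1 limit alone, and these shares do not separate the 2 cases. The share that exceeded both was not distinguishable from that of the 18 at this depth.

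**Figure D4:**
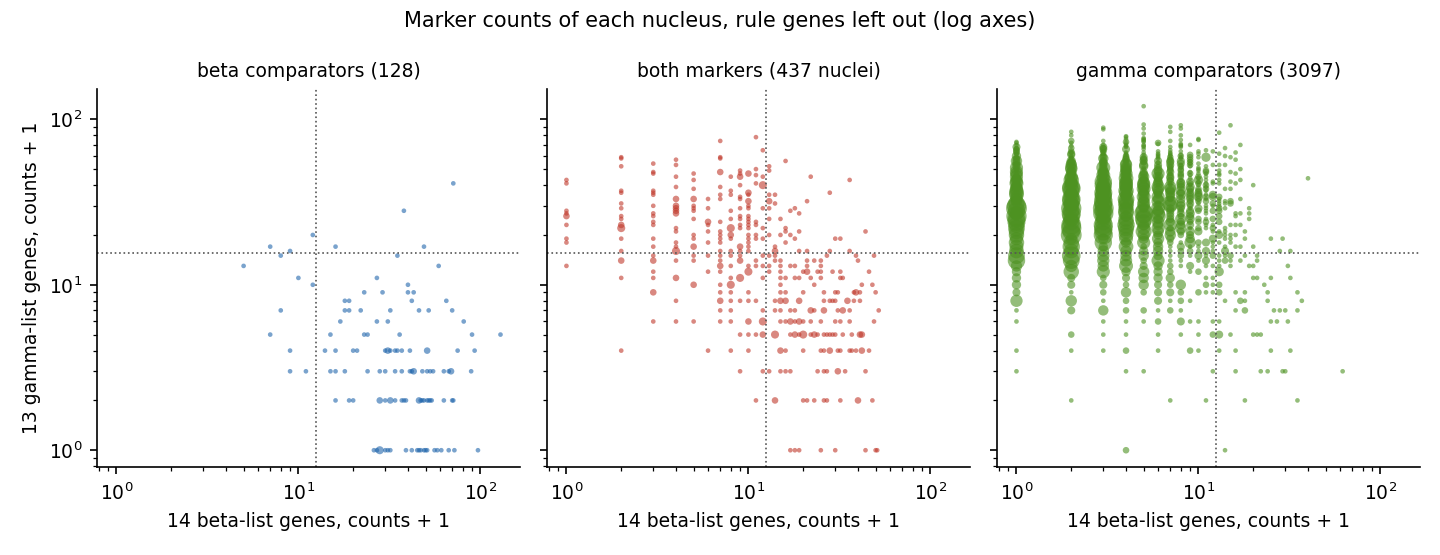
Counts per nucleus of 14 TAL-β list genes (horizontal, counts + 1, log axis) and 13 TAL-γ list genes (vertical, counts + 1, log axis) in the TAL-β comparators, the double-marker nuclei and the TAL-γ comparators, with dot area in proportion to the number of nuclei and dotted lines at the limits. The double-marker nuclei fill the range between the comparators, and 36 of 437 lie above both limits.

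Values by the count of Tmem52b, a gene of the rule, are given as a description. Among the 99 nuclei with 3 or more counts, 71.7% exceeded the TAL-β limit alone and 8.08% the TAL-γ limit alone, and among the 238 with 1 count, 24.4% and 47.1% did. As CPM, nuclei with 3 or more counts of Tmem52b held 2.6 times (2.33 to 2.9) the Wnk1, 2.47 times (1.84 to 3.32) the Pth1r and 2.23 times (1.61 to 3.1) the Cldn16 of nuclei with 1 count. They held 0.26 (0.203 to 0.328) times the Ptger3 and 0.17 (0.0603 to 0.387) times the Cldn10. Kcnj10 had a ratio of 0.996 (0.699 to 1.4) and Rbfox1 of 1.19 (1.07 to 1.32). Median depth was 2748 counts in the nuclei with 3 or more counts and 2482.5 in those with 1.

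The clusters that the authors deposited with the matrices, which were made without the rule, also divided the double-marker nuclei. Cluster 6 held 211 of them (48.3%), cluster 7 held 97 (22.2%), cluster 2 held 65 (14.9%) and cluster 5 held 42 (9.61%). Cluster 6 also held 118 of the 128 TAL-β comparators, whereas clusters 2 and 5 held 958 and 899 of the TAL-γ comparators, and cluster 7 held 338 of the TAL-γ and 5 of the TAL-β comparators. Tmem52b was found in 78.2% of all nuclei of cluster 6, in 22.1% of cluster 7, and in 4.3% and 5.05% of clusters 5 and 2. The lowest shares were 0.486% and 0.499% in clusters 3 and 4, which held 1 and 2 double-marker nuclei. Both the Tmem52b shares and the places of the double-marker nuclei follow from the rule genes, and clusters 3 and 4 also held little Tmem207 (22.5 and 44.6 CPM), so nothing is read from the low numbers there.

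The 4 clusters differed in the genes of the double-marker nuclei they held. In the order of clusters 6, 7, 5 and 2, Wnk1 stood at 2815, 312, 270 and 275 CPM, and Pth1r at 388, 85.8, 19.3 and 13.1 CPM. Cldn16 stood at 262, 140, 38.5 and 26.2 CPM, Cldn10 at 12.8, 113, 241 and 223 CPM, and Ptger3 at 206, 1268, 1985 and 1351 CPM. Mef2c was at 193 and 15.6 CPM in clusters 6 and 7 and had no count in clusters 5 and 2. Cluster 6 thus carried the TAL-β side of the set and clusters 5 and 2 its TAL-γ side, while cluster 7 lay between for claudins 10 and 16. Kcnj10 stood at 193, 234, 173 and 85.2 CPM and Rbfox1 at 2382, 1814, 1667 and 446 CPM, so that Kir4.1 and Rbfox1 were both lowest in cluster 2. Both marker limits were exceeded by 13.4% (7.33% to 21.8%) of the cluster 7 nuclei, 6.64% of cluster 6, 4.62% of cluster 2 and 2.38% of cluster 5, with intervals that overlap.

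Within cluster 6 the double-marker nuclei and the TAL-β comparators shared claudin 16 and Kir4.1 levels but differed in genes that included Rbfox1, Itgb8, Itgb6 and Ano4. The ratio for 211 against 118 nuclei was 1.01 (0.761 to 1.35) for Cldn16, 0.881 (0.641 to 1.22) for Kcnj10 and 0.881 (0.812 to 0.956) for Wnk1. Rbfox1 was 5.08-fold (4.26 to 6.1), Itgb8 6.17-fold (3.57 to 11.5), Itgb6 2.29-fold (1.89 to 2.8), Mef2c 2.12-fold (1.38 to 3.37) and Umod 1.69-fold (1.57 to 1.81) higher in the double-marker nuclei. Of the TAL-γ and TAL-α lists, the ratio was 5.29 (2.76 to 11.4) for Ano4, 4.69 (2.64 to 9.09) for Ptger3, 3.66 (1.81 to 8.38) for Prox1 and 2.79 (2.11 to 3.73) for Ranbp3l. The whole lists were not counted in this cluster. Kcnt1 had 41 counts against 1. Nrxn3 stood at 129 against 4272 CPM. Of 4864 genes tested, 182 were at least 2-fold higher (3.74%) and 182 at least 2-fold lower (3.74%), and the Enox1 and Thsd4 limit again held for the double-marker nuclei alone. A further 77 nuclei of cluster 6 met the rule of the TAL-γ comparators, with the limit and without Tmem52b, but carried TAL-β markers. They held Wnk1 at 2320, Pth1r at 357 and Ptger3 at 160 CPM, against 374, 20.2 and 1593 CPM in the TAL-γ comparators as a whole, and Cldn10 at 25.8 CPM. The ratios of the double-marker nuclei to these 77 were 0.823 (0.745 to 0.91) for Rbfox1, 0.94 (0.694 to 1.29) for Itgb8, 1.2 (0.801 to 1.86) for Mef2c, 1.17 (0.78 to 1.79) for Kcnj10 and 1.27 (0.888 to 1.85) for Cldn16. Of 4382 genes, 120 were at least 2-fold higher (2.74%) and 54 at least 2-fold lower (1.23%). In cluster 6, nuclei with Tmem207 or Gpc5 and little Enox1 and Thsd4 thus held Rbfox1 at 2382 CPM with a Tmem52b count and 2894 CPM without one.

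In clusters 7, 2 and 5 the ratios to the TAL-γ comparators varied by gene and cluster. Cluster 4, with 358 TAL-γ comparators, held 2 double-marker nuclei and was not compared. Against the 338 TAL-γ comparators of cluster 7, Kcnj10 had a ratio of 1.01 (0.745 to 1.35), Rbfox1 1.11 (0.995 to 1.23), Mef2c 0.991 (0.238 to 3.16) and Cldn16 0.822 (0.555 to 1.19). Pth1r, at 2.94 (1.59 to 5.39), and Casr, at 1.31 (1.13 to 1.5), were higher in the double-marker nuclei beyond counting error. Of 5824 genes, 52 were at least 2-fold higher (0.893%) and 187 at least 2-fold lower (3.21%). The excess of Kcnj10 and Mef2c over TAL-γ comparators in the whole set was not detectable inside this cluster at this depth. In cluster 2, the 65 double-marker nuclei held 3 times (1.78 to 4.82) the Jag1 and 2.25 times (1.79 to 2.82) the Casr of the 958 TAL-γ comparators. In cluster 5, the ratios of 42 to 899 nuclei were 1.3 (1.11 to 1.52) for Rbfox1 and 2.12 (1.27 to 3.37) for Cldn19. Kcnj10 had ratios of 1.05 (0.548 to 1.84) and 1.09 (0.64 to 1.75) in clusters 2 and 5.

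**Figure D5:**
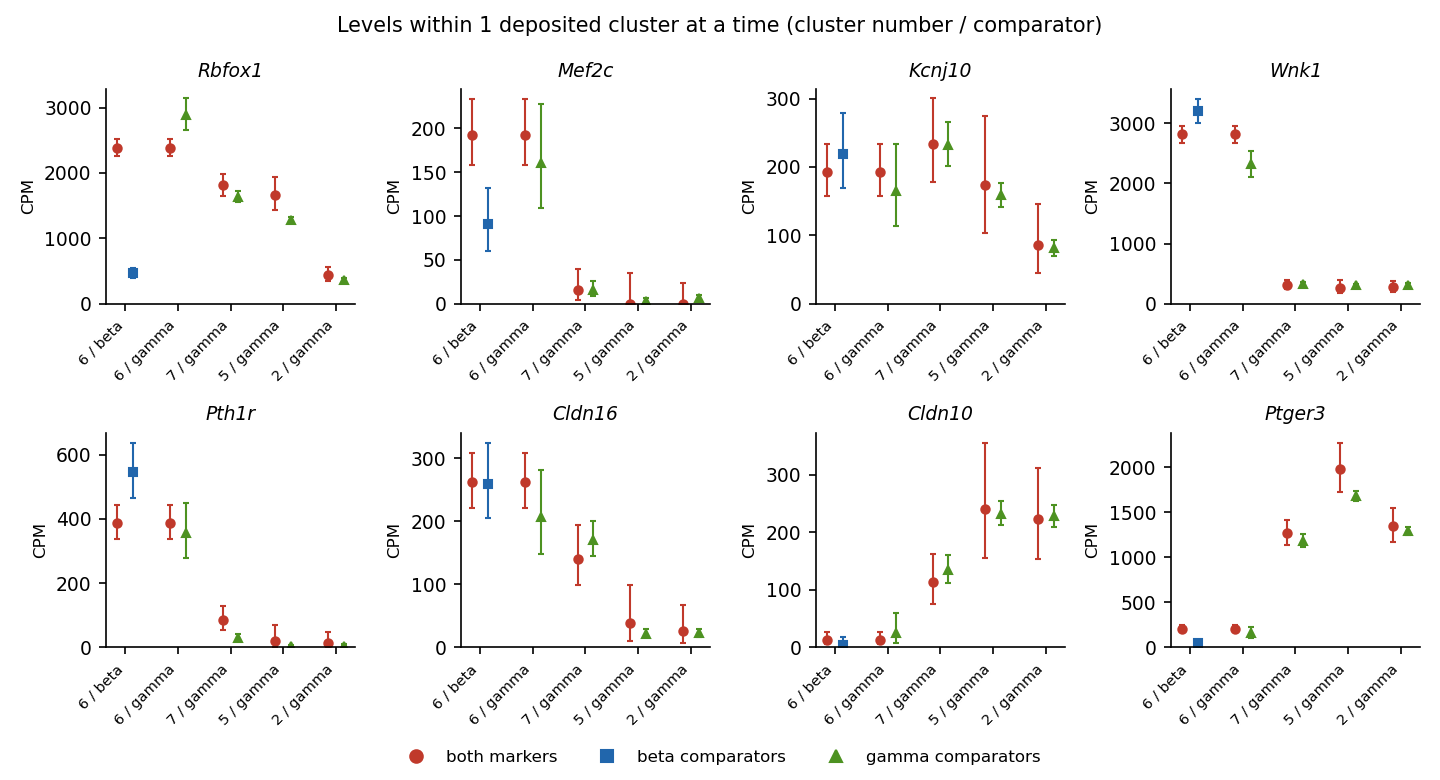
Levels in CPM of 8 genes in the double-marker nuclei (red circles) and in the comparators of the same deposited cluster (blue squares for TAL-β, green triangles for TAL-γ), with exact 95% Poisson intervals. Rbfox1 in cluster 6 is 2382 CPM against 469 CPM in TAL-β and 2894 CPM in the 77 nuclei that met the TAL-γ comparator rule there but held TAL-β markers (Wnk1 at 2320 CPM), and in cluster 7 it is 1814 against 1638 CPM.

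The claudins, which the rule did not use, sorted the double-marker nuclei further. Cldn16 without Cldn10 was found in 114 nuclei (26.1%, 22% to 30.5%), Cldn10 without Cldn16 in 65 (14.9%, 11.7% to 18.6%), both in 11 (2.52%, 1.26% to 4.46%) and neither in 247 (56.5%). In the TAL-β comparators the shares were 39.1%, 1.56%, 1.56% and 57.8%, and in the TAL-γ comparators 5.81%, 34.5%, 2.13% and 57.6%. The share with both claudins was close to that of the comparators within counting error. Free RNA held Cldn10 at 301 CPM and Cldn16 at 62.8 CPM. Cldn16 was found in 0 of the 77 proximal tubule barcodes. Cldn10 was found in 79.2% of them and stood at 376 and 401 CPM in the Lrp2-rich clusters 10 and 11, above its level in the free RNA, so that these barcodes give no background rate for it. Cldn10 together with Kcnj10, the pair that defines TAL-γ, was found in 19 double-marker nuclei (4.35%, 2.64% to 6.71%) and 6.49% of TAL-γ comparators.

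The nuclei with Cldn16 and those with Cldn10 differed in other genes. Wnk1 was 5.58-fold (4.38 to 7.21), Pth1r 7.02-fold (3.27 to 18) and Casr 1.53-fold (1.26 to 1.87) higher in the 114 nuclei with Cldn16 alone than in the 65 with Cldn10 alone. Ptger3 was at 0.242 (0.195 to 0.3), Ano4 at 0.288 (0.216 to 0.38) and Ranbp3l at 0.294 (0.252 to 0.342) of the level in nuclei with Cldn10. Tmem207, which the rule used, differed less, at 0.764 (0.662 to 0.882). Rbfox1 was 1.79-fold (1.53 to 2.11) and Kcnj10 1.85-fold (1.08 to 3.33) higher in nuclei with Cldn16. Rbfox1 was lower in the 128 TAL-β (426 CPM) than in the TAL-γ comparators (820 CPM). In the 18 TAL-β nuclei within the Enox1 and Thsd4 limit it was higher than in the TAL-γ comparators, so that order depended on the limit. Mef2c had 53 counts in nuclei with Cldn16 and 2 in nuclei with Cldn10.

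In the cortex library, which did not enter the choice, 130 of 5442 barcodes met the same rule (2.39%, 2% to 2.83%), or 28.3% of the 459 that passed the gates, compared with 7.13% of 6129 in the medulla. The gates, which include the Enox1 and Thsd4 limit, passed 459 of 5442 cortex but 6129 of 8121 medulla barcodes. The last 2 shares therefore have unlike bases, and over all medulla barcodes the share was 5.38%. Region and library cannot be told apart in these shares. These 130 nuclei were set beside 644 cortex TAL-β comparators, again without the Enox1 and Thsd4 limit. Rbfox1 stood at 1612 against 263 CPM, a ratio of 6.14 (5.37 to 7.01). Itgb8 had a ratio of 4.52 (3.24 to 6.29), Mef2c 2.49 (1.83 to 3.35), Itgb6 2.39 (2.06 to 2.76) and Umod 1.68 (1.58 to 1.77). Kcnj10, at 191 against 173 CPM (1.1, 0.816 to 1.47), and Cldn16, at 214 against 232 CPM (0.923, 0.698 to 1.21), were at the level of the comparators, as was Jag1 (0.91, 0.519 to 1.51). Cldn10 had 5 counts. The ratios of Rbfox1, Itgb8, Mef2c, Itgb6 and Umod were thus above 1 in the cortex nuclei, as within medulla cluster 6.

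Of the 341 genes at least 2-fold higher in the medulla comparison with TAL-β nuclei, 302 were measured in the cortex, where 57 were at least 2-fold higher and 9 at least 2-fold lower. Among all 7816 genes measured in the cortex, 185 were higher (2.37%) and 524 lower (6.7%). Of the 256 genes that were lower in the medulla, 253 were measured in the cortex, where 1 was higher and 76 were lower. The limit on Enox1 and Thsd4 entered both comparisons, and its part in these counts was not tested.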

How the data were processed

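Nuclei of 2 libraries, 1 from cortex and 1 from medulla, were profiled by PIPseq. The authors aligned reads to GRCm39 and counted transcripts per gene and barcode with PIPseeker, and they deposited raw and filtered matrices of whole-number counts, not normalized, with PIPseeker cluster numbers. The study's methods give the year of the reference, and no annotation release is named in the sources used here. These matrices precede the study's removal of doublets and free RNA and its integration, and the notes of the submitters also name bcl2fastq and Seurat 4.4.0. The names of cell types are therefore rebuilt from marker counts, and the study's annotated object was not used here.

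The members, gene lists and comparisons were chosen with earlier results of these data known. No filter beyond the rule was applied to the filtered matrices, which were analysed with Python 3.11.15 (numpy 2.4.6, scipy 1.17.1, pandas 2.3.3, scanpy 1.11.5). Counts were summed over the nuclei of a set and divided by the set's total to give CPM. Poisson intervals were used for levels, conditional binomial intervals for ratios and Clopper-Pearson intervals for shares, all at 95%. Intervals take each count as a distinct molecule, which depends on how PIPseeker binned molecular identifiers and was not examined. With 1 library per region no p-value was computed. A level of 0 was bounded by 3 counts, so a rare gene without a TAL-β count could be called below both comparators by this floor. Genes needed 30 counts over the sets compared, and rule genes were left out of counts of genes. Detection was also given after thinning nuclei to 1000 counts. The TAL-β comparators kept every gate unless fewer than 50 nuclei remained, which was the case, and the Enox1 and Thsd4 gate was then dropped for them.

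Named genes were the rule genes, the proposed markers, list genes with at least 30 counts, and the 12 or 10 genes with the largest ratios in each direction among genes with at least 50 counts in the higher set. Egfr, Ehf, Itgb6 and other list genes were named from these after their values were seen. All 386 named genes were matched to GENCODE M39 by Ensembl identifier. Scrublet's automatic threshold called 3 of 8121 medulla and 359 of 5442 cortex barcodes and was used in neither library, so no doublets were removed, in cortex also where it had made calls, and leaving out the top 5% of scores was an alternative. The ratio script was checked on simulated data. Alternatives changed the limits of the rule, the comparators, the gene minimum, the scaling and the filters.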

Additional observations from a re-analysis of the deposited data

Results flagged for a closer look

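The cortex library was not used to choose the nuclei, yet 130 of its 5442 barcodes met the rule, which called for a closer look because the sets of the main comparisons all came from the medulla. There was no control library against which this count could be set, and the limit that a count of 0 allows is 3 barcodes. Of the 130 barcodes, 2 (1.54%) were among the 5% with the highest doublet scores, and 1 held 10 or more counts of Slc12a3. Their proximal tubule markers summed to 643 CPM, against 441 CPM in the cortex TAL-β comparators and 95.5 CPM in the medulla nuclei. In 48 cortex proximal tubule barcodes, Tmem52b was found in 14.6% (6.07% to 27.8%) and Gpc5 in 18.8% (8.95% to 32.6%), with Tmem207 in 0. The part of free RNA in the count of 130 was not tested.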

How the results depend on the processing

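Among the ratios recomputed, those of 14 genes, none that had passed its fold changed direction, while ratios near 1 could cross it, as Kcnj10 against the TAL-β comparators did with the 18 nuclei that passed all gates (1.38). The number of nuclei was 450 without the limit on total counts, 408 with Tmem207 alone, 344 with an Enox1 and Thsd4 limit of 2 and 409 without the highest doublet scores. It moved to 182 when at least 2 counts were required on each side, where 164 genes were higher than in the TAL-β comparators, 497 higher and 872 lower than in the TAL-γ comparators, 503 above both and 1264 below both, and 55 cortex barcodes met the rule. At least 2 counts of Tmem52b alone, an alternative chosen after seeing the data, gave 199 nuclei and 167, 455, 862, 472 and 1168 genes in that order. An Enox1 and Thsd4 limit of 2 left 63 cortex barcodes. Comparators chosen by the subtype genes alone gave 760 genes lower than in the TAL-γ comparators. The 18 TAL-β nuclei that passed all gates, also an alternative chosen after seeing the data, gave 594 genes higher, 698 lower, 54 above both and 1110 below both. Without a gene minimum, 1042 genes were higher and 5951 lower against the TAL-β comparators, 8137 higher and 803 lower against the TAL-γ comparators, and 1421 lay below both. A 0 was set at 3 counts over the set, a high level among 326685 TAL-β counts and a low one among 7414321 TAL-γ counts. Rare genes without a comparator count were thus called lower against TAL-β and higher against TAL-γ by this floor, and these counts describe no difference in level. A minimum of 100 counts tested fewer genes and gave 89, 54, 103 and 110, with 76 above and 168 below both. In the other alternatives the cause of a change was not tested.

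Limits were set by depth and by design. With 1 library per region, the spread between animals is unknown, and intervals cover counting error only. A single count of Tmem52b admitted 238 of 437 nuclei, and free RNA and droplets with more than 1 nucleus were not removed. Median-of-ratios scaling shifted log2 ratios by 0.05 and 0.02. No paired analysis was possible because each region had 1 library and the sets came from the same one.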
